A study of Mus musculus with 3 samples.

Results

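The Obox homeobox cluster region was taken as the 1900 windows of 1 kb from 15300001 to 17200000 on mouse chromosome 7 (mm9), of 2725738 such windows in the whole genome. The windows are given by their position, and the rule sets no limit on their level. RNA was sequenced from ovulated oocytes of superovulated females, with 1 library for each of 3 litters and no second group. All females were LSD1 FL/FL, so that both copies of the histone demethylase gene Kdm1a were floxed in every sample, and ZP3::Cre negative, so that the Cre expressed from the oocyte-specific Zp3 promoter was absent. The oocytes came from a mixed strain background and were collected by embryonic day 0.5. Total RNA was amplified by SPIA, a linear copying of cDNA at constant temperature, before library construction. Nothing in the labels says how many females or oocytes a library holds.

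Obox genes encode transcription factors with a homeodomain, a helical fold that binds DNA. In the mouse they are transcribed mainly in growing oocytes and early embryos. Their mRNAs and proteins are passed to the zygote, where Obox factors act in the activation of the embryonic genome. The family lies in a cluster of repeated copies that also holds many pseudogenes, which are copies that have lost their coding function.

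The gene order was read from tables built on GRCm38, a later assembly than that of the files, and no gene was placed on an mm9 window. In RefSeq's order along chromosome 7, 60 genes run from the first to the last Obox symbol of the cluster, and 51 of them carry an Obox symbol. Of these, 6 are protein-coding (Obox7, Obox2, Obox1, Obox3, Obox5 and Obox6) and 45 are pseudogenes. Genes of the Sult2a sulfotransferases precede the cluster, and Crx, a homeobox factor of photoreceptors, follows it. GENCODE lists 7 protein-coding Obox genes on the chromosome, with Obox8 added, besides 39 genes with an Obox4 pseudogene symbol, of which Obox4-ps35 is typed as a long intergenic RNA, and 7 Obox3 pseudogenes. Defining markers of the oocyte are nuclear genes as well and were not read here for want of an mm9 annotation.

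Obox1 and Obox2 share exact sequence over the length of 1 read. The first 72 coding bases of Obox1 are shown with the matching stretch of the other members of the cluster (GRCm38, chromosome 7, transcript strand, bases 1 to 72 of each coding sequence except Obox6, where they are bases 28 to 99), because a read of 72 bases with this sequence matches Obox1 and Obox2 equally well. Capitals mark bases that differ from Obox1.
Obox1: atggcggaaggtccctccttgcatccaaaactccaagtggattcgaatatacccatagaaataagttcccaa
Obox2: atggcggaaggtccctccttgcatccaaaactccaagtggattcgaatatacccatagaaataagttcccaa
Obox7: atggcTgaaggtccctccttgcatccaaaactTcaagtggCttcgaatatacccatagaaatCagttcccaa
Obox3: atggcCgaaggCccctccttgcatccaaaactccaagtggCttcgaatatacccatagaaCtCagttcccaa
Obox5: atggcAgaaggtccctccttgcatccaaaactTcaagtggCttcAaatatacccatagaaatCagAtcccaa
Obox6: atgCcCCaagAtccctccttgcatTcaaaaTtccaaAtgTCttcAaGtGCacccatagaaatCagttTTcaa

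Obox2 had 0 differences from Obox1 in this stretch, Obox7 had 4, Obox3 had 5, Obox5 had 6 and Obox6 had 16. Obox8, not printed, had 35 in its closest stretch. Over whole transcripts, 1 for each gene, 47.9% of the 72-base words of Obox1 occurred exactly in Obox2, and 49.7% of those of Obox2 occurred in Obox1. Between Obox5 and Obox7, 44 words were shared, and Obox7 shared 3 words each with Obox1 and Obox2. Obox3, Obox6 and Obox8 shared none with another protein-coding member. With all transcripts of a gene and all other genes of the chromosome, the share of words found elsewhere was 53.3% for Obox2, 47.8% for Obox1, 12.1% for Obox3, 7.63% for Obox7, 5.89% for Obox5 and 0 for Obox6 and Obox8. All of the Obox3 words concerned lay in Obox3 pseudogenes. At least 10% of words were shared by 34 of the 39 genes with an Obox4 pseudogene symbol (median 60.8% of words) and by 6 of the 7 Obox3 pseudogenes (median 61.6%). Among 2014 other protein-coding genes of the chromosome, the median share was 0 and 16.9% of genes reached that limit.

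The region held 49325, 38521 and 133261 alignments in litters 1, 2 and 3, out of library totals of 35183199, 31787887 and 32028802. Scaled to CPM, the alignments per 1e6 of the library, it stood at 1402 in litter 1, 1212 in litter 2 and 4161 in litter 3 (mean 2258 ± 1650, SD, n = 3). As a share of the library this was 0.140% (95% Wilson interval 0.139 to 0.141) in litter 1, 0.121% (0.120 to 0.122) in litter 2 and 0.416% (0.414 to 0.418) in litter 3. Litter 3 lay far above the others, which differed less from each other. The intervals cover counting error only, since amplified reads are not independent molecules. In such bulk samples, fewer oocytes and less RNA per oocyte cannot be told apart, and CPM, a share of the library, measures neither. Without litter 3 the mean of the region was 1307 CPM.

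A window of the region held more alignments on average than a window in the rest of chromosome 7. The mean per window was 0.738, 0.638 and 2.19 CPM in the region (1.19 ± 0.869, SD, n = 3), against 0.260, 0.269 and 0.371 CPM in the other 150625 windows (0.300 ± 0.0616, SD, n = 3), for litters 1, 2 and 3. The ratio was 2.84 in litter 1, 2.37 in litter 2 and 5.91 in litter 3, or 1.77 ± 0.70 on the log2 scale (SD, n = 3). The region was higher in 3 of 3 litters. A two-sided exact sign-flip test gave p = 0.25, the smallest value that 3 litters allow, so it could not pass 0.05. With the 10 highest windows left out of the region and of the rest, the log2 ratio was -0.11 in litter 1, -0.27 in litter 2 and 0.23 in litter 3 (mean -0.052 ± 0.25, SD, n = 3), so the region stayed higher in litter 3 alone.

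Coverage was also more frequent in the region, though most windows held no alignment at this depth. Windows with any coverage made up 14.8% ± 0.273 of the region and 8.15% ± 0.710 of the rest of the chromosome (SD, n = 3 litters). Covered bases made up 2.73% ± 0.0597 of the region, against 1.46% ± 0.111 of the rest. At 1 CPM or more, the count was 68, 71 and 79 windows of the region in litters 1, 2 and 3. All litters reached that level in 48 windows, or 2.53% of the region, against 1961 windows or 1.30% of the rest. No litter had an alignment in 1452 of the 1900 windows, and the longest uncovered run was 50677 bases, from 16591079 to 16641755.

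**Figure D1:**
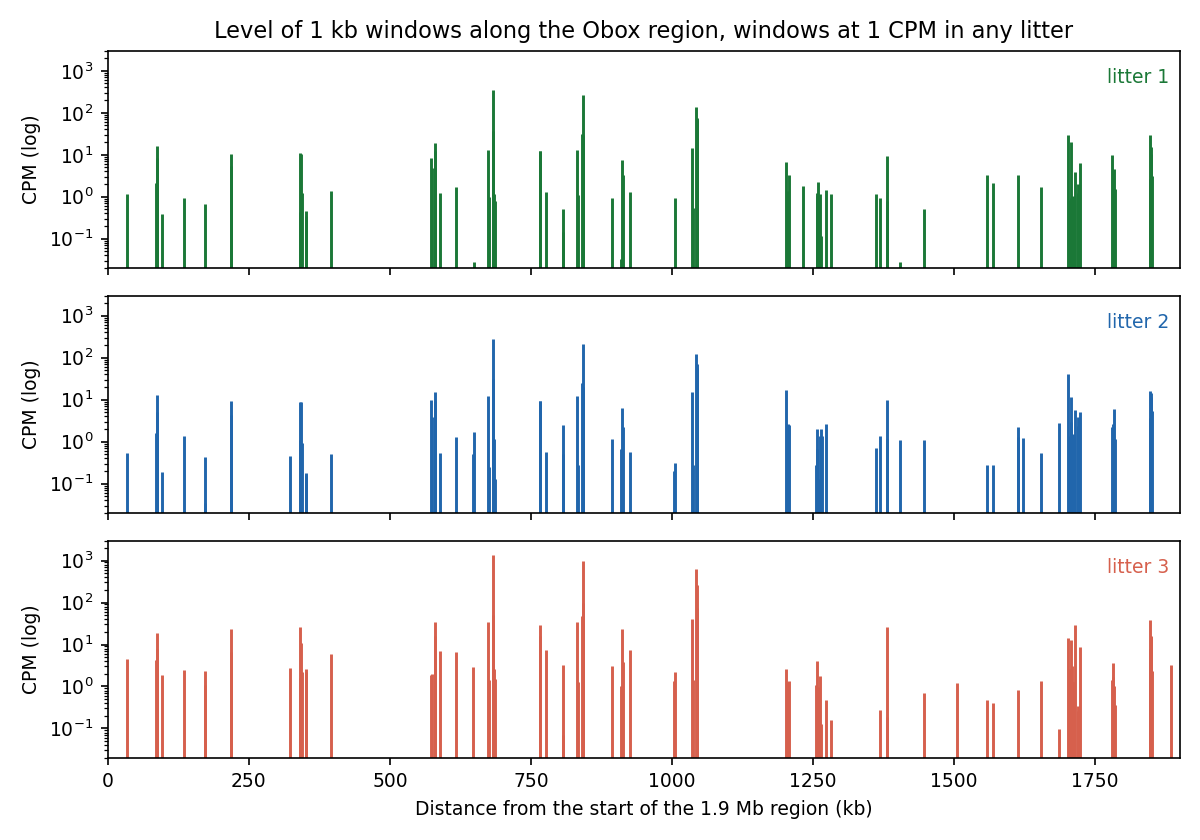
CPM (log axis) of each 1 kb window that reached 1 CPM in any litter, by distance in kb from the start of the region, with 1 panel for each litter. The highest bars stand at the same 3 places in every litter, and reach 340, 279 and 1340 CPM at the tallest of them in litters 1, 2 and 3.

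Among the 80 stretches of 1.9 Mb into which chromosome 7 was divided, the region ranked 5 by mean CPM (2258, against a median of 293 over the other 79) and 12 by the number of windows at 1 CPM in all litters (48, against a median of 21). The level of litter 3 over the mean of litters 1 and 2 was 3.18 in the region, rank 4, with a median of 1.07 and a maximum of 5.42 elsewhere. Litter 3 was thus high in several stretches of the chromosome. From 19100001 to 21000000, the stretch that ranked 2 by mean CPM had 1479, 1508 and 5877 CPM in litters 1, 2 and 3.

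The coverage fell into 279 covered stretches, here defined as bases with at least 1 alignment in any litter, joined across gaps of up to 1000 bases. They are numbered by mean CPM. Only 48 of them averaged 1 CPM or more, and these held 98.8% of the region's CPM. Another 174 averaged under 0.1 CPM, and 170 of 578 uninterrupted blocks consisted of 1 alignment in 1 litter. Of the 84152 bases covered in any litter, 25884 (30.8%) were covered in all.

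3 stretches carried most of the signal. Stretch 1, from 15982143 to 15986798, had 380 CPM in litter 1, 311 in litter 2 and 1395 in litter 3. Stretch 2, from 16140460 to 16144772, had 322, 255 and 1144 CPM. Stretch 3, from 16342835 to 16347524 and the longest at 4690 bases, had 279, 248 and 976 CPM. Together they held 70.0% of the region's CPM in litter 1, 67.2% in litter 2 and 84.5% in litter 3. The order of the 3 stretches was the same in every litter, and in each of them litter 3 lay 3.70 to 4.04 times above the mean of litters 1 and 2. The rest of the region had 421, 397 and 646 CPM in litters 1, 2 and 3, a narrower spread.

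The 3 stretches resembled each other in their layout. Stretch 1 began with a block of 274 bases, followed by one of 228 bases and a main block of 1259 bases that reached a depth of 3663 alignments in litter 1 and 22857 in litter 3. Stretch 2 held blocks of 274, 229 and 1251 bases in the same order. Stretch 3 held blocks of 598 and 723 bases instead. Each had a weaker stretch at lower coordinates, at a like distance: stretch 11 ended 6464 bases before stretch 1, stretch 12 ended 6472 bases before stretch 2 and stretch 10 ended 5766 bases before stretch 3. Stretches 11 and 12 were each 2213 bases long and differed little, with 13.8, 12.3 and 36.5 CPM in stretch 11 and 13.9, 12.3 and 36.3 CPM in stretch 12 for litters 1, 2 and 3.

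The excess of litter 3 was uneven along the 3 stretches. Between 1400 and 1450 bases from its start, stretch 1 had a depth per 1e6 alignments of 85.4 in litter 1, 63.9 in litter 2 and 561 in litter 3. Between 1050 and 1100 bases the same stretch had 46.6, 57.7 and 35.4, and here litter 3 was the lowest. Stretch 2 repeated this at the same distances, with 76.4, 53.0 and 467 between 1400 and 1450 bases and litter 3 at 0.80 times the mean of the others between 1050 and 1100 bases. In stretch 3 the highest depth lay between 50 and 100 bases, with 92.5, 77.9 and 497, while litter 3 stood at 0.74 times the mean of the others between 1050 and 1100 bases. A part of each stretch was thus several times higher in litter 3, next to parts that were level or lower.

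**Figure D2:**
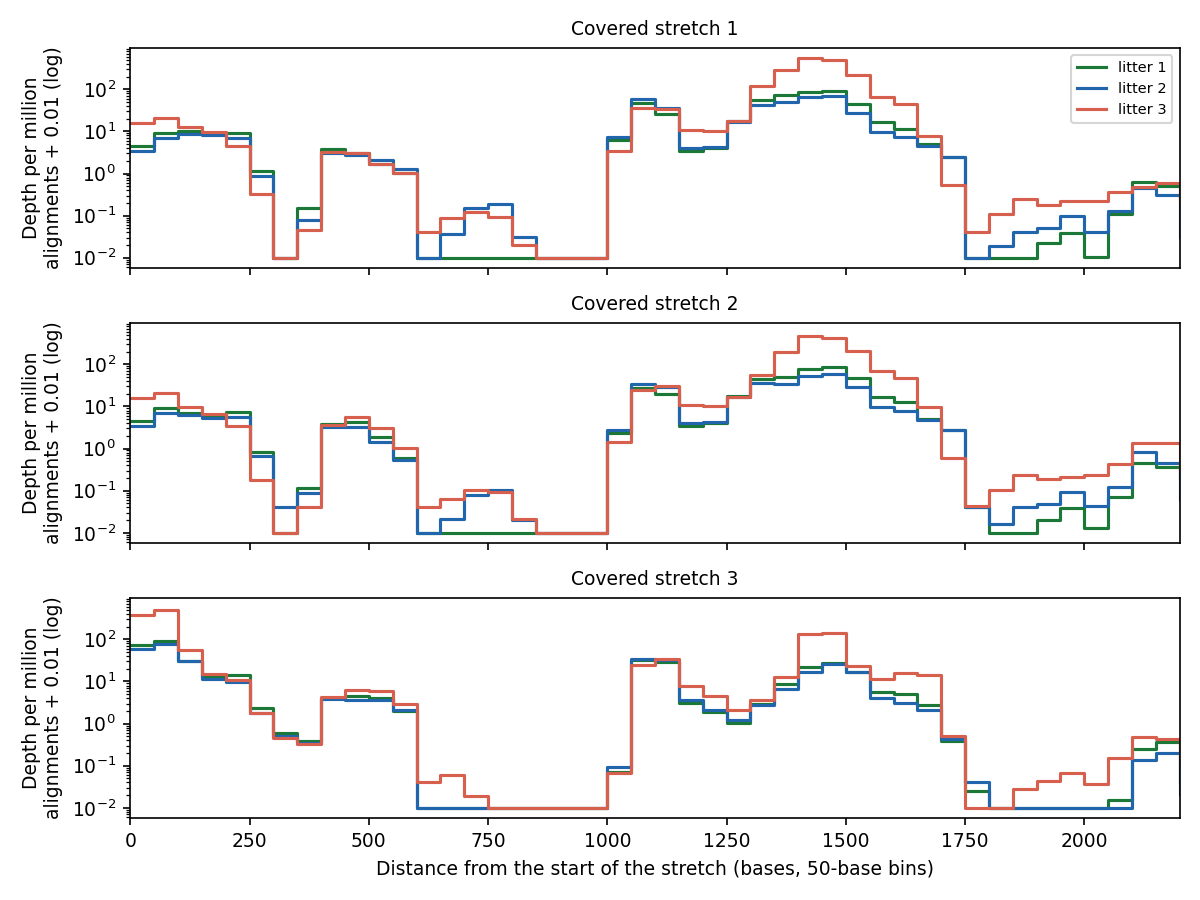
Depth per 1e6 alignments plus 0.01 (log axis) in 50-base bins along the 3 highest covered stretches, by distance in bases from the start of each, with 1 line for each litter. Litter 3 stands above the others at the main peaks (561, against 85.4 and 63.9 in litters 1 and 2, in stretch 1) and meets them or falls below them near 1050 bases.

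Litter 3 had more alignments in these stretches at nearly the same number of start positions. In stretch 1, alignments began at 897 positions in litter 1, 840 in litter 2 and 922 in litter 3, while the alignments numbered 13353, 9898 and 44682. Each position thus carried 14.9, 11.8 and 48.5 alignments on average in litters 1, 2 and 3. The 10 most used positions held 10.7%, 11.9% and 25.6% of the alignments of stretch 1, and 21.3%, 21.1% and 35.7% of those of stretch 3. When every start position of the library was counted once, the region had 1566, 1596 and 1703 CPM (1622 ± 72.1, SD, n = 3). Litter 3 was still the highest, by less than before. A position counts once however many alignments it holds, so this count levels off where nearly every position is used, and differences in level shrink in it by construction. Alignments that repeat a start position made up 83.9%, 80.9% and 94.0% of the region in litters 1, 2 and 3, against 78.2%, 78.5% and 85.1% of the rest of the chromosome. In the whole library they made up 85.6%, 85.5% and 85.2%, so the region lay above it in litter 3 alone. What share of repeats comes from amplification and what from abundant RNA was not tested.

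**Figure D3:**
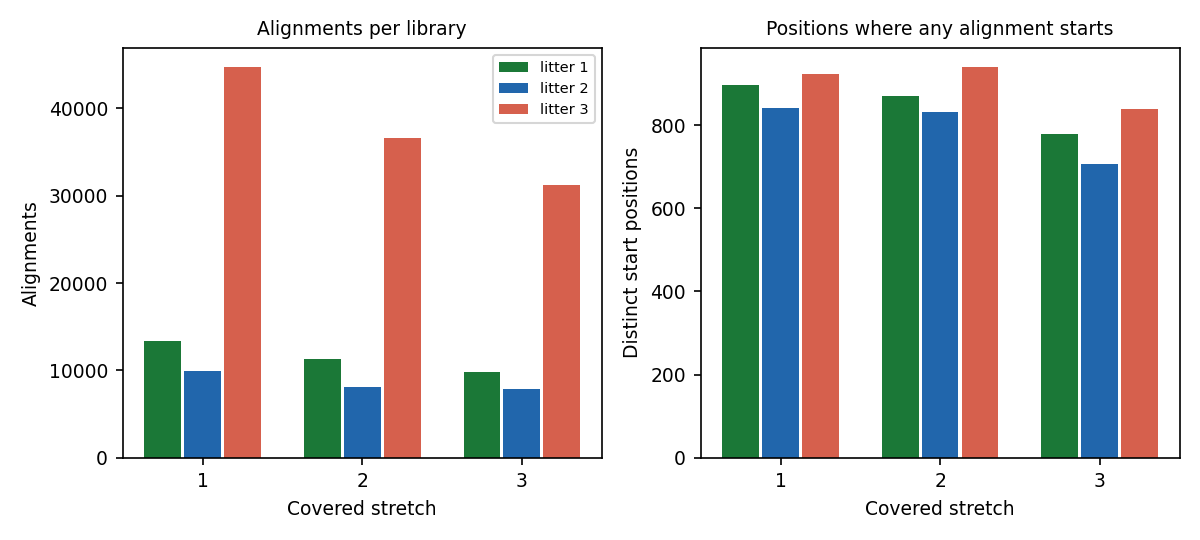
Alignments (left) and distinct positions where an alignment starts (right) in the 3 highest covered stretches, with 1 bar for each litter and both axes from 0. In stretch 1 the alignments reach 44682 in litter 3, against 13353 and 9898 in litters 1 and 2, while the positions number 922 in litter 3, against 897 and 840 in litters 1 and 2.

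Identical depth at several places was common in the region. A group of 3 successive start positions that together held 50 alignments or more, termed a run, was called recurring where the same counts in all 3 libraries, at the same spacing, occurred elsewhere in the genome in either direction. Recurring runs held 34.4%, 31.8% and 40.7% of the region's alignments in litters 1, 2 and 3 (35.6% ± 4.55, SD, n = 3), against 11.0%, 12.3% and 24.2% of those in the rest of chromosome 7 (15.8% ± 7.24). In the whole library the share was 27.1%, 27.1% and 23.5%, nearer to that of the region in litters 1 and 2. More of the region's alignments lay in runs that could be tested, at 78.2%, 75.3% and 89.5%, against 65.5%, 65.7% and 74.0% for the rest. The tracks carry no read names, so whether the same reads were reported at each place was not tested.

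Of the 1826 testable runs of the region, 881 recurred, against 141015 of 665490 testable runs in the whole genome. Their partners lay on 7_random alone for 353 runs (40.1%), a sequence that mm9 assigns to chromosome 7 without a position. They lay both within the region and on 7_random for 292 runs (33.1%), and within the region alone for 161 runs (18.3%). Only 3 runs had all their partners on other chromosomes. A run was found at 2 places in 431 cases, at 3 in 372, at 4 in 53 and at 5 in 25.

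The runs merged into 24 sets of matching places. The longest tied 1477 bases of stretch 1, from 15982238 to 15983714, to 7_random with 11366, 8479 and 39647 alignments in litters 1, 2 and 3, each count the same at both places. A further 250 bases that overlap its end, from 15983642 to 15983891, also matched bases 16141963 to 16142212 of stretch 2, at a distance of 158321 bases. Recurring runs accordingly held 94.5% of the alignments of stretch 1, 10.3% of those of stretch 2 and 1.59% of those of stretch 3. Stretches 11 and 12, the weaker neighbours of stretches 1 and 2, were tied to each other at a distance of 158309 bases and to 7_random as well. The whole of 7_random had 399, 329 and 1438 CPM in litters 1, 2 and 3, of which 90.9%, 90.3% and 96.2% was recurring.

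A second family of copies joined 6 stretches of 3066 to 3735 bases, namely stretches 5, 6, 7, 9, 13 and 15. Stretches 5, 6 and 7 reached the same highest depth, of 341, 221 and 703 alignments in litters 1, 2 and 3. The 135 bases from 15641698 to 15641832 in stretch 7 recurred 237750 bases on in stretch 5 and 423973 bases on in stretch 6. Another 78 bases recurred at 5 places, in stretches 13, 7, 5, 6 and 15. The 6 stretches together had 136 CPM in litter 1, 109 in litter 2 and 230 in litter 3. The level of litter 3 over the mean of litters 1 and 2 ranged from 1.31 to 2.70 among them. Recurring runs held 35.9% to 60.9% of the alignments of each, as a mean over litters. Counts there are identical between places, so the values of the 6 stretches are not taken as separate observations. Smaller copies followed the same form: stretches 24 and 25, each 181 bases long, had 46, 18 and 237 alignments alike. A short run with partners in stretches 5, 6 and 7 recurred on chromosome 17 too, from 36589454 to 36589535.

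**Figure D4:**
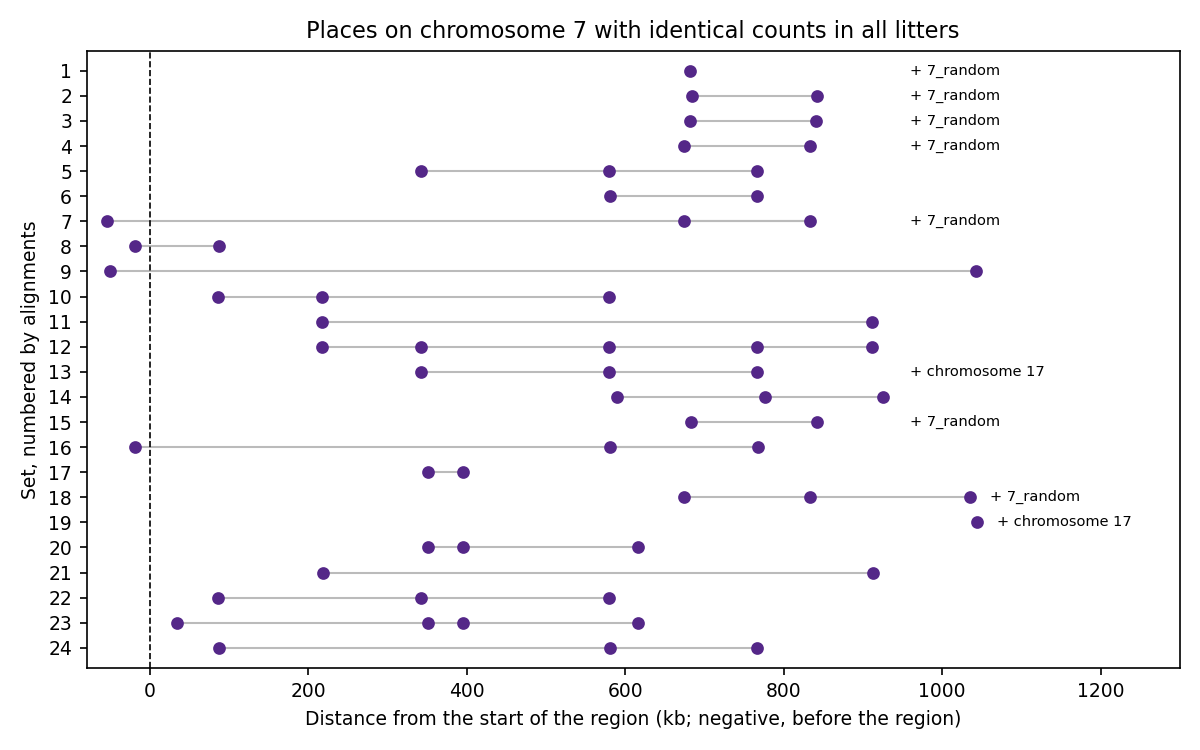
Places on chromosome 7 that share identical counts in all litters, with 1 row for each of 24 sets numbered by alignments and distance in kb from the start of the region (dashed line) along the x axis; dots joined by a line belong to 1 set, and text names partners on 7_random or chromosome 17. Sets 2, 3 and 4 join the same pair of neighbourhoods, at distances of 158321, 158317 and 158309 bases.

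Of the 48 stretches at 1 CPM or more, 19 shared a recurring run with any other place in the genome. They lay between 15333613 and 16347524. Together they had 1168, 968 and 3902 CPM in litters 1, 2 and 3, of which stretches 1, 2 and 3 held 981, 815 and 3514. Sharing 1 run is enough to be counted here. In stretches 2 and 3 recurring runs held only 10.3% and 1.59% of the alignments, so these sums are not sums of copied alignments. The 29 stretches where no such run was found had 206, 217 and 235 CPM. Stretches with copies hold identical counts in part and are not taken as separate observations. A run needs 50 alignments over the 3 litters, so a low stretch passed mainly where litter 3 was high, as in the set with 6, 3 and 44 alignments in litters 1, 2 and 3. The choice of the 19 stretches thus depends in part on litter 3, and no count of their direction is given. Stretches 30 and 32, where no run was found, had 24 and 109 alignments alike in litters 1 and 3, against 95 and 74 in litter 2. Whether copies and the height of litter 3 are related was not tested.

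Stretches where no copy was found varied in both directions. Stretch 4, from 17146802 to 17150680, had 60.8 CPM in litter 1, 50.3 in litter 2 and 79.5 in litter 3, and held the longest uninterrupted block, of 2233 bases. Stretch 8, from 17002118 to 17002753, had 29.2, 40.4 and 14.2 CPM, and was lowest in litter 3. Stretch 21, from 16502565 to 16502892, had 6.79, 17.2 and 2.65 CPM. Stretch 18, from 17014335 to 17015051, went the other way with 3.87, 5.63 and 28.8 CPM, or 6.06 times the mean of litters 1 and 2 in litter 3. Litter 3 was thus highest in stretches 4 and 18 and lowest in stretches 8 and 21. All of these lie beyond 16347524, where the last stretch with copies ends. As no gene was placed on mm9 windows, whether they lie within the Obox cluster was not tested.

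**Figure D5:**
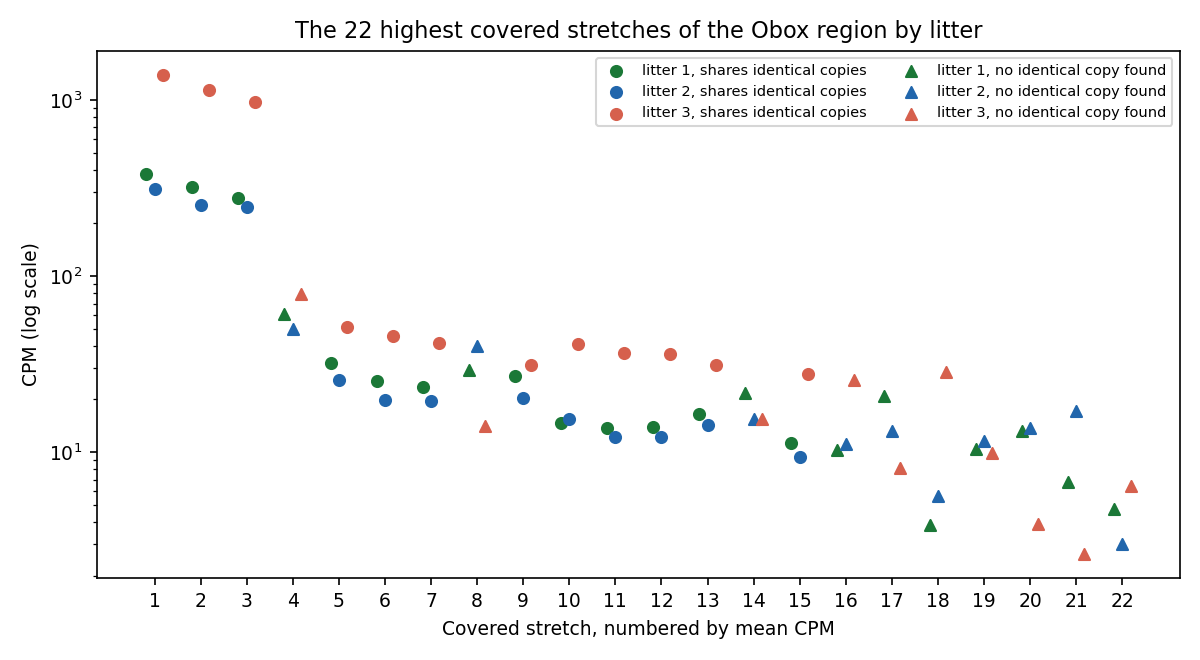
CPM (log axis) of the 22 highest covered stretches in each litter, numbered by mean CPM, with circles for stretches that share identical copies and triangles for those where no identical copy was found. Litter 3 reaches 1395 CPM at stretch 1, and triangles show it high (stretch 18, 28.8 CPM) or low (stretch 8, 14.2 CPM).

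Counts were compared between the litters by a chi-square test with Benjamini-Hochberg adjustment over all 10913 windows of the genome at a mean of 10 CPM or more. It sets the libraries against counting error and not against a spread between replicates. Each alignment was counted whole in the window of its leftmost base. The CPM limit and the fold values of this test can therefore differ from those by summed depth. In the region 25 of 27 windows passed an adjusted p of 0.05, where 97.5% of all windows did. With a limit of 4-fold between the highest and the lowest litter added, 6 windows (22.2%) were called in the region, 17.4% of all windows, and 107 of 601 (17.8%) in the rest of chromosome 7. All 6 (22.2% of the 27 windows) were highest in litter 3, and 0 were lowest in it, against 8.78% and 8.3% of all windows for these directions. Counted in either direction, the share called is close to that of the genome. Some called windows hold identical counts in part, through copies, and are not taken as separate observations. The largest difference was 7.45-fold in the window from 17014001 to 17015000, which holds stretch 18. The other 5 called windows lie in stretches 1, 2 and 3, from 4.02-fold in the window from 16142001 to 16143000 to 5.30-fold in that from 16342001 to 16343000. The window from 16343001 to 16344000, beside it in stretch 3, had 2475, 2160 and 2225 alignments in litters 1, 2 and 3 and an adjusted p of 0.498 by the same chi-square test.

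Over the windows with a mean of 1 CPM or more, litter 3 was the highest in 53 of 74 in the region (71.6%), against 37.5% of 3193 in the rest of the chromosome. Litter 3 stood at a median of 1.86 times the mean of litters 1 and 2 in the region and 0.854 times in the rest. Litter 2 was the lowest in 43 of the 74 windows (58.1%), against 28.3% in the rest. In both parts a window can pass the mean of 1 CPM through 1 high litter alone. The choice of the 74 windows thus depends in part on litter 3. Copies with the same counts also enter more than once, so these windows are not separate observations of a direction. The median coefficient of variation over litters was 61.4% in the region and 53.0% in the rest. The 74 windows share libraries and in part hold identical counts. Across them, log2(CPM + 0.5) correlated with Pearson r = 0.94 (Spearman rho 0.90) between litters 1 and 2. The values were 0.84 (0.72) between litters 1 and 3 and 0.82 (0.68) between litters 2 and 3. In the rest of the chromosome r was 0.85, 0.71 and 0.67 for the same pairs.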

How the data were processed

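The authors deposited 1 coverage signal per library, the number of alignments over each base, not scaled to depth. Reads were aligned with Bowtie to mm9, per the submitters' processing notes; its version, settings and the treatment of reads with several matches were not given in the sources used here. Strand and read names are not part of the tracks. Each alignment was taken as 72 gapless bases, since 99.9% of isolated blocks at a depth of 1 had that length, and start positions were recovered from steps in depth. The CPM of a window is its summed depth over 72, per 1e6 alignments of the library. For the chi-square test alone, each alignment was counted whole in the window of its leftmost base. Calls of recurring runs and of windows differing between litters were checked on simulated data. The simulated counts varied by counting error only, so the check does not cover false calls from amplification. The litters are taken as 3 replicates of 1 group, so only spread between litters and the contrast with the rest of chromosome 7 were tested. Named regions were the 10 highest windows and stretches, the longest stretch, the 10 sets of copies with most alignments and the 5 called windows with the largest ratio; the last called window, the window with the smallest difference, the sets of copies at 5 places, on chromosome 17 and with the fewest alignments in litter 2, and stretches 11, 12, 13, 15, 18, 21, 24, 25, 30 and 32 were added after their values were seen. The region and all lists were chosen with earlier results of these data known. Gene order and sequences came from RefSeq and GENCODE tables of GRCm38 and were used for names, order and sequence only. The alternatives tried were other thresholds, totals, scalings, counting each start position once, leaving out recurring positions or the highest windows, and leaving out each litter. Analyses used Python 3.11.15, numpy 2.4.6, scipy 1.17.1, pandas 2.3.3 and matplotlib 3.10.9.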

Additional observations from a re-analysis of the deposited data

How the results depend on the processing

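Of 38 alternative settings over 5 results, 27 were counted as unchanged, 9 as moved and 2 as reversed. The log2 ratio was judged by its sign alone, whatever the size of the move. The region's CPM and the recurring share were judged against their SD over litters, and counts by a fold limit. For the region's CPM that SD was 1650, so wide moves were counted as unchanged. The log2 ratio of the region to the rest of chromosome 7 was 1.77. With the 10 highest windows of each left out it was -0.052 (0.23 in litter 3). With the 3 highest stretches left out it was -0.24, an alternative chosen after seeing the data. That alternative is one-sided: nothing was left out of the rest, and the region's mean was still taken over all 1900 windows. By construction both alternatives drop the windows that hold most of the region's alignments. The log2 ratio was 1.38 to 2.03 with each litter left out in turn and 0.91 to 1.39 under the other settings. The region's CPM, 2258, was 1307 to 2781 with each litter left out and 1622 to 3350 otherwise. The 48 windows at 1 CPM in all litters were 64 at a limit of 0.5 CPM, which 1.79% of windows in the rest of chromosome 7 passed. They were 28 at a limit of 5 CPM, which 0.469% of the rest passed. With each start position counted once they were 83, and with a litter left out 53 to 56. No share of the rest was taken for these last settings. The recurring share, 35.6%, was 40.3% at a minimum of 20 alignments per run, 45.6% at 10, and 29.1% to 37.5% with a litter left out. The 6 windows that differed over 4-fold between litters of 27 tested (17.4% of all windows) were 17 of 27 at a 2-fold limit (54.5% of all), 31 of 73 from a mean of 1 CPM (35.1%), and 0 to 6 with a litter left out: 0 of 25 without litter 3 (1.09%), 2 of 27 without litter 2 (11.0%) and 6 of 27 without litter 1 (15.1%). The cause of these moves was not tested. No paired analysis was possible because all 3 libraries form 1 group. Limits: 3 litters cannot pass 0.05 in an exact test, and levels at places with copies depend on how reads with several matches were reported.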
